A study of Mus musculus with 9 samples.

Results

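The Hox cluster genes encode the homeodomain transcription factors of the Hoxa, Hoxb, Hoxc and Hoxd clusters, together with antisense transcripts named after them. Members were the probe sets to which the platform annotation assigns a single symbol made of Hoxa, Hoxb, Hoxc or Hoxd and a number, or such a symbol followed by os and a number. This gave 50 probe sets of 34 genes, out of 34945 probe sets with 1 symbol for 18193 genes on the array. Of the 34 genes, 33 encode proteins and 1, Hoxd3os1, is an antisense RNA. Hox genes without a probe set of their own were not analysed here.

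The study measured NIH 3T3 cells, an established mouse fibroblast line, on 9 Affymetrix expression arrays, with 3 independent biological replicates in each of 3 groups. All cultures were serum-starved and received cycloheximide, an inhibitor of translation, at 3 µg/ml for 2 h, and the controls received nothing else. The second group received cytochalasin D at 2 µM for 90 min, and the third, called the double-drug group below, received latrunculin B at 5 µM together with cytochalasin D at 2 µM for 90 min. Titles in that group mention only latrunculin B, and the agent label, which lists both drugs, was followed. The coactivator MRTF is held by monomeric actin, called G-actin. Cytochalasin D caps filaments and sets MRTF free from the monomer, and latrunculin B, which binds the monomer as well, leaves MRTF held. The series title concerns genes controlled by this G-actin switch, and the comparisons ask whether transcripts differ between the states before new protein is made. The arrays had median intensities of 7.57 to 7.84. An RNA extract from a whole culture cannot tell fewer cells that make a transcript apart from less transcript per cell.

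Hox genes lie in the order in which they are used along the body axis: genes with low numbers are active toward the head and genes with high numbers toward the tail. Genes of the same number in different clusters are paralogs and often share functions. Fibroblasts in culture commonly keep part of the Hox pattern of the body site they came from, held by Polycomb proteins where the genes are silent and by trithorax proteins where they are active.

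A gene was called expressed here if its brightest probe set had a mean intensity of at least 32 over the 9 arrays, a round threshold, since no detection calls were used. By this rule 12 of the 34 genes were expressed (35.3%), compared with 49.8% of all 18193 genes. The expressed set held 4 of 9 measured genes of the Hoxa cluster (Hoxa2, Hoxa3, Hoxa5 and Hoxa7) and 3 of 9 of the Hoxb cluster (Hoxb3, Hoxb9 and Hoxb13). It also held 2 of 7 of the Hoxc cluster (Hoxc4 and Hoxc5) and 2 of 8 protein genes of the Hoxd cluster (Hoxd8 and Hoxd9), as well as Hoxd3os1. In 9 genes the probe set stayed at or above 32 on all 9 arrays, and the exceptions were Hoxc4, Hoxc5 and Hoxd3os1. Probe sets differ in how strongly they bind their target, so intensities of different genes give no order of abundance.

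The threshold can be read against marker genes of other cell types. Fibroblast markers were expressed in 14 of 15 cases, with lumican (Lum) at 5.08 as the exception. Endothelial markers reached the threshold in 0 of 10 cases, skeletal muscle markers in 0 of 10 and neuronal markers in 0 of 12. Epithelial markers reached it in 1 of 12 cases (Krt14, a basal keratin, at 125), and macrophage and leukocyte markers in 3 of 11 (Cd14 at 174, Csf1r at 42.1 and Coro1a at 38.4), while Ptprc, the pan-leukocyte phosphatase, lay at 5.10. No member of any of these lists was called as changed by limma in any contrast at an adjusted p under 0.05. Of all tested probe sets, 1.57% were called for cytochalasin D against control, 0.111% for both drugs against control and 0.259% between the treated groups. Lists of this size are too small to tell such counts from these shares.

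**Figure D1:**
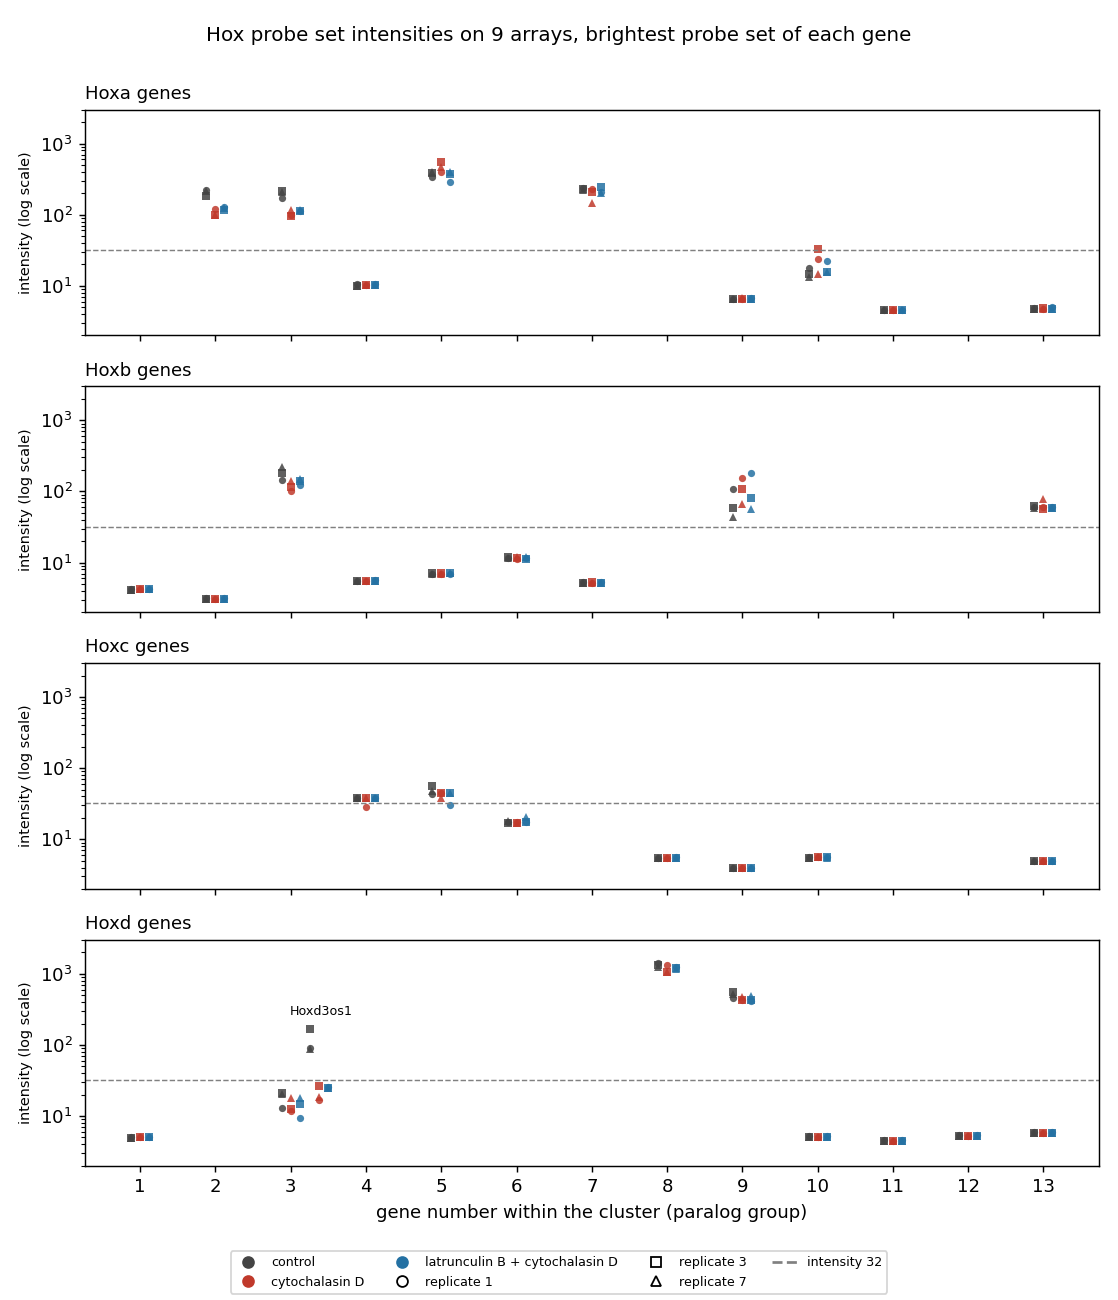
Intensity (log scale) of the brightest probe set of each Hox gene on each of the 9 arrays, in cluster order by gene number, with colour for the group and marker shape for the replicate number. Points above the dashed line at 32 belong to the 12 genes called expressed, apart from 1 array of Hoxa10, and most other genes lie close together near the bottom of the scale; heights of different genes are not comparable as amounts.

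In the Hoxa cluster, Hoxa2, which patterns the second pharyngeal arch and the hindbrain, had a mean of 145 over the 9 arrays and ranged from 97.7 to 226. Hoxa3, needed for the thymus and parathyroid, had a mean of 138 and ranged from 96.8 to 213. In both genes the 3 highest arrays were the controls. Hoxa5, which acts in the lung and the cervicothoracic skeleton, averaged 399 and ranged from 289 to 549. Hoxa7, a gene of the thoracic skeleton, averaged 213 and ranged from 148 to 243. Hoxa4, which lies between Hoxa3 and Hoxa5, was at 10.2, and Hoxa9, beyond Hoxa7, was at 6.54.

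In the Hoxb cluster, Hoxb3, a hindbrain gene, averaged 147 and ranged from 101 to 222, and Hoxb9, a gene of the thoracic skeleton, averaged 95.3 and ranged from 44.2 to 182. Hoxb13, best known from the tail bud and the prostate, averaged 61.2 and ranged from 56.5 to 77.4. The genes lying between Hoxb3 and Hoxb9 that were measured (Hoxb4, Hoxb5, Hoxb6 and Hoxb7) had means of 5.51, 7.02, 11.7 and 5.24. In the Hoxc cluster, Hoxc4 averaged 36.8 and Hoxc5, which acts in the cervical and upper thoracic skeleton, averaged 43.9, with ranges of 28.6 to 38.2 and 30.3 to 56.5. The call of Hoxc5 rests on the brightest of its 3 probe sets, and the others averaged 9.09 and 5.61. Hoxc6, next in the cluster, averaged 17.7 and stayed below 32 on all 9 arrays.

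In the Hoxd cluster, Hoxd8 averaged 1229 and ranged from 1046 to 1432, and Hoxd9, a gene of the limb and lumbar region, averaged 464 and ranged from 417 to 549. Their neighbours Hoxd10, Hoxd11, Hoxd12 and Hoxd13, which build the limb and the genital tubercle, had means of 5.13, 4.50, 5.31 and 5.83. Hoxd3 itself averaged 15.4, and the antisense Hoxd3os1, which overlaps Hoxd3 on the opposite strand in the reference gene table, averaged 53.7. Hoxd3os1 passed the threshold only through its 3 control arrays, since all 6 treated arrays were below 32.

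By paralog group, the expressed protein genes were 1 of 2 measured in group 2, 2 of 3 in group 3, 1 of 3 in group 4, 2 of 3 in group 5, 1 of 2 in group 7, 1 of 2 in group 8, 2 of 4 in group 9 and 1 of 4 in group 13. Groups 1 and 6 had 0 of 2 each, and groups 10, 11 and 12 had 0 of 3, 0 of 2 and 0 of 1. Between 16 and 32 lay Hoxa10 (mean 18.9) and Hoxc6, and the other 20 genes were under 16. Hoxa10, which acts in the uterus and the hindlimb, reached 32.6 on 1 cytochalasin D array and lay between 13.2 and 23.9 on the other arrays.

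Some of the dimmer probe sets hardly varied between arrays. Hoxc4 lay within 2% of its median on 8 of 9 arrays, at 37.6 to 38.2, and at 28.6 on the remaining array, numbered 1 in the cytochalasin D group. Hoxb13 lay within 2% of its median on 6 of 9 arrays. Among all 1871 probe sets with a mean between 32 and 64, 5.93% lay within 2% of their median on at least 7 arrays. Brighter probe sets held equal values as well. Hoxd8 (1433638_s_at) was at 730.042 on the cytochalasin D array numbered 1 and the double-drug arrays numbered 1 and 3. Hoxa5 (1448926_at) was at 394.084 on the cytochalasin D array numbered 1 and the double-drug array numbered 7. What the near-constancy and the equal values reflect was not tested. The expression call of Hoxc4 rests on near-constant values, and that of Hoxb13 does in large part.

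Against control, cytochalasin D lowered Hoxa2, Hoxa3 and Hoxd3os1, and no Hox gene was called higher. Of the 50 member probe sets, 28 (19 genes) were bright enough to be tested, and all of these exceeded the 40th percentile of the array in question on all 9 arrays, so none was admitted by 1 group alone. The other 22 had values between 3.08 and 6.67 on every array and were not tested. Changes were fitted with limma on log2(intensity + 16), a scale on which changes of dim probe sets come out smaller, and called at a Benjamini-Hochberg adjusted p under 0.05 over the 27010 probe sets tested. The test called 3 of 28 member probe sets (10.7%), all lower, where 0.422% of all tested probe sets were called lower and 1.57% were called in either direction. The members were chosen with earlier results of these data known, so these shares are a description.

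Hoxa2 had intensities of 226, 184 and 212 in the controls numbered 1, 3 and 7, of 122, 99.9 and 97.7 with cytochalasin D, and of 128, 117 and 122 in the double-drug group. Every control array lay above every treated array. The means were 207 ± 21.2 in controls, 106 ± 13.3 with cytochalasin D and 123 ± 5.74 with both drugs (SD, n = 3 each). The fall with cytochalasin D was a log2 change of -0.87 (SE 0.095, limma adjusted p = 0.0082), and it ranked 53 from the lowest among the 27010 changes.

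Hoxa3, measured by the probe set 1427433_s_at, had intensities of 169, 213 and 211 in controls, of 99.9, 96.8 and 115 with cytochalasin D, and of 113, 112 and 117 with both drugs. Again the control arrays did not overlap with either treated group, and the treated arrays of both groups lay within a narrow band. The means were 198 ± 24.7, 104 ± 9.59 and 114 ± 2.45 (SD, n = 3 each), and the log2 change with cytochalasin D was -0.83 (SE 0.093, limma adjusted p = 0.00863), at rank 63 from the lowest. In the array maker's naming, the suffix of this probe set marks probes that can match more than 1 transcript. A dimmer Hoxa3 probe set (1452421_at) went from 31.9 ± 5.63 to 24.1 ± 1.99 and 26.8 ± 0.58, a log2 change of -0.25 with cytochalasin D that did not pass (adjusted p = 0.327). The other Hoxa3 probe sets, at 5.61 and 4.79 on average, were not tested.

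Hoxd3os1 had intensities of 89.3, 170 and 86.3 in controls, of 16.8, 26.2 and 18.7 with cytochalasin D, and of 26.0, 24.7 and 24.8 with both drugs. The control numbered 3 stood well above the other controls, and every treated array lay below every control. The means were 115 ± 47.6, 20.6 ± 4.96 and 25.2 ± 0.71 (SD, n = 3 each). The log2 change with cytochalasin D was -1.79 (SE 0.23, limma adjusted p = 0.0147), and only 2 of the 27010 changes were lower. A further Hoxd3os1 probe set (1430263_at) lay between 5.12 and 6.67 on all arrays and was not tested, so the change rests on 1 probe set.

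All 3 calls rested on the spread estimated over all 3 groups. With only the 6 arrays compared in the fit, the log2 changes were the same and 0 of the 28 were called, with adjusted p-values of 0.0772 for Hoxa2, 0.083 for Hoxa3 and 0.121 for Hoxd3os1. In that fit the share called over all probe sets was 0.589%, down from 1.57%. Without the cytochalasin D array numbered 7, Hoxd3os1 was not called (adjusted p = 0.0571).

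**Figure D2:**
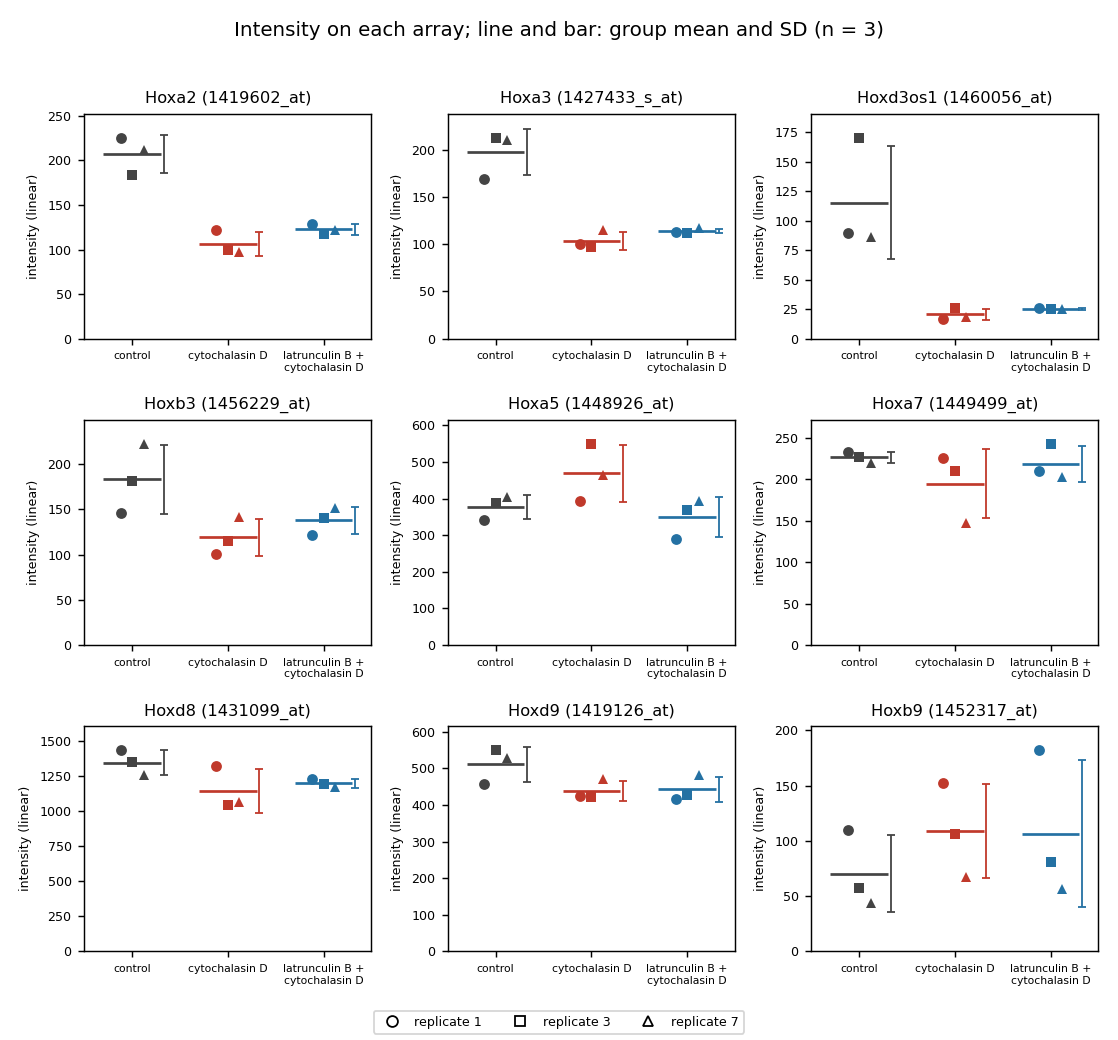
Intensity (linear scale) of 9 expressed Hox genes on each array, by group, with a horizontal line for the group mean and a vertical bar for the SD (n = 3). The control arrays of Hoxa2, Hoxa3 and Hoxd3os1 lie above all treated arrays, whereas the groups of Hoxa5, Hoxa7 and Hoxb9 overlap.

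The sequences around the start sites of these 3 genes are shown because they are the members that fell. They come from RefSeq on GRCm38.p6, each 250 bases before to 50 bases after the start, read along the gene's own strand, and all 3 lie on the minus strand: Hoxa2 at chr6:52164782-52165081, Hoxa3 at chr6:52213018-52213317 and Hoxd3os1 at chr2:74716081-74716380. Capitals mark the only match to any of the 5 motifs searched.
Hoxa2: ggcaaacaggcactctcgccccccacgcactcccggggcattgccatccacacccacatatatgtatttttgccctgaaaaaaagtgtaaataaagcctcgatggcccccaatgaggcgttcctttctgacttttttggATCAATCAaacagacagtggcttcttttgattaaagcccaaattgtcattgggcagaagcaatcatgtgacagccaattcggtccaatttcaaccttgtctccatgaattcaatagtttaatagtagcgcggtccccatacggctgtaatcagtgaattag
Hoxa3: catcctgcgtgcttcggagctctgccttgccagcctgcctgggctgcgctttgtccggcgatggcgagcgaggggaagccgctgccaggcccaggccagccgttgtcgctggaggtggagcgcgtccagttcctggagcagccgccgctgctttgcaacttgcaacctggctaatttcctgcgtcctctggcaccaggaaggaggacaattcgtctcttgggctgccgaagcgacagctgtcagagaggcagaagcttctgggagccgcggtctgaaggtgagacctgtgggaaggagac
Hoxd3os1: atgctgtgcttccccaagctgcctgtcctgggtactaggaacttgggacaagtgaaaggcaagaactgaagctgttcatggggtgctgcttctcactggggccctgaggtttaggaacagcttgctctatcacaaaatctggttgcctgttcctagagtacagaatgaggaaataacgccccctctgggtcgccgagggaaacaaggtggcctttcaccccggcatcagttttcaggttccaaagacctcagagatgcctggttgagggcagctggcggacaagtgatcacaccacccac
The motifs were searched on both strands: the CArG box of serum response factor (SRF), the TATA box motif TATAAA, the TEAD factor motif GGAATG, the AP-1 motif TGANTCA and TGATNNAT, a motif bound by Hox proteins with Pbx partners. Hoxa2 held TGATNNAT on the opposite strand, starting 111 bases before its start site, and 8.85% of all 32851 promoters of this length hold that motif. None of the 5 motifs was found in the windows of Hoxa3 and Hoxd3os1.

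The tabulated start of Hoxa3 lies between those of Hoxa5 and Hoxa7, and which start the probe set reports was not determined. Promoters were tabulated for 20 member genes (22 windows), 8 of them expressed. The CArG box occurred in 0 of these 22 windows and in 1.63% of all promoters. TATAAA occurs in 13.6% of all promoters, GGAATG in 14.7% and TGANTCA in 7.81%. A missing match says only that these letters are absent from this window.

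Further Hox probe sets were lower with cytochalasin D without passing the adjusted threshold. At an unadjusted p under 0.05 there were 8 of 28, all lower, where 5.65% of all tested probe sets were lower at that level. Hoxa3 and Hoxd8 each gave more than 1 of the 8, so these are fewer genes than probe sets. The group values did not overlap and were lower with cytochalasin D in 5 of 28, against 6.45% of all probe sets, namely the 3 called ones, Hoxb3 and 1 of Hoxd8. They were higher in 1 of 28, a dim Hoxc5 probe set with 1 array at 15.9 and the other cytochalasin D arrays at 8.43 and 8.42, against 5.05% of all.

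Hoxb3, the Hoxb paralog of Hoxa3, had intensities of 146, 181 and 222 in controls, of 101, 115 and 142 with cytochalasin D, and of 121, 141 and 151 with both drugs. The lowest control lay just above the highest cytochalasin D array and below 1 double-drug array. Its log2 change with cytochalasin D was -0.55 (SE 0.17, limma adjusted p = 0.278).

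Hoxd8 was measured by 2 probe sets. The first (1431099_at) had intensities of 1432, 1351 and 1255 in controls, of 1320, 1046 and 1063 with cytochalasin D, and of 1229, 1190 and 1172 with both drugs, so that 1 cytochalasin D array lay among the controls. Its log2 change with cytochalasin D was -0.24 (limma adjusted p = 0.442). Without the cytochalasin D array numbered 1 it was -0.35 and was called (adjusted p = 0.0489), where 1.8% of all probe sets were called. That was the only call with single arrays left out, and the adjusted p-values reached 0.839. The second (1433638_s_at) had intensities of 832, 853 and 766 in controls, and its cytochalasin D arrays, at 730, 641 and 681, were all lower. Its log2 change was -0.25 (SE 0.060, adjusted p = 0.139). Hoxd9, the neighbour of Hoxd8, went from 511 ± 48.3 in controls to 439 ± 26.9 with cytochalasin D and 442 ± 34.9 with both drugs (SD, n = 3 each), a log2 change of -0.21 with cytochalasin D (limma adjusted p = 0.47), and its groups overlapped.

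No other expressed Hox gene was called in any of the 3 contrasts. Hoxa5 had intensities of 341, 387 and 404 in controls, of 394, 549 and 464 with cytochalasin D, and of 289, 369 and 394 with both drugs, and the cytochalasin D arrays overlapped with the controls and met the double-drug group at 394. Its log2 change with cytochalasin D was 0.29 (SE 0.15, limma adjusted p = 0.638). A second Hoxa5 probe set (1443803_x_at) had a log2 change of 0.11.

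Hoxa7 had a log2 change of -0.22 with cytochalasin D (SE 0.15), and its lowest value, 148, was on the cytochalasin D array numbered 7. Hoxb9 had intensities of 110, 57.7 and 44.2 in controls, of 153, 107 and 67.6 with cytochalasin D, and of 182, 81.4 and 56.1 with both drugs. The array numbered 1 was the highest of each group and that numbered 7 the lowest. The log2 change of Hoxb9 with cytochalasin D was 0.54, with an SE of 0.47 that includes this spread. The log2 changes of Hoxb13, Hoxc4 and Hoxc5 with cytochalasin D were 0.08, -0.09 and -0.15, and none of these passed the test.

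The 14 tested member probe sets with a mean under 32 had log2 changes with cytochalasin D between -0.25 (the second Hoxa3 probe set) and 0.32 (Hoxa10, SE 0.17). Among them, Hoxd3 went from 18.2 ± 4.43 in controls to 14.1 ± 3.34 with cytochalasin D and 13.97 ± 4.29 with both drugs (SD, n = 3 each), a log2 change of -0.18 (limma adjusted p = 0.847) beside the fall of its antisense transcript. Further probe sets of Hoxb3 (1427605_at) and Hoxc5 (1450832_at), with means of 21.9 and 9.09, had log2 changes of -0.07 and 0.14. Of the rest, those of Hoxa4 (1420226_x_at) and Hoxc6 (1427361_at and 1427454_at) had log2 changes between -0.02 and 0.00 with cytochalasin D and between 0.01 and 0.05 with both drugs. The median log2 change of the 28 tested Hox probe sets was -0.013 with cytochalasin D, compared with -0.00098 for all tested probe sets, and it is set largely by dim probe sets whose changes the added 16 makes smaller. Over the 14 member probe sets with a mean of at least 32 the median was -0.22, compared with -0.020 over all such probe sets. Hoxd3os1 is among the 14 only through its controls, so this is a description only.

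**Figure D3:**
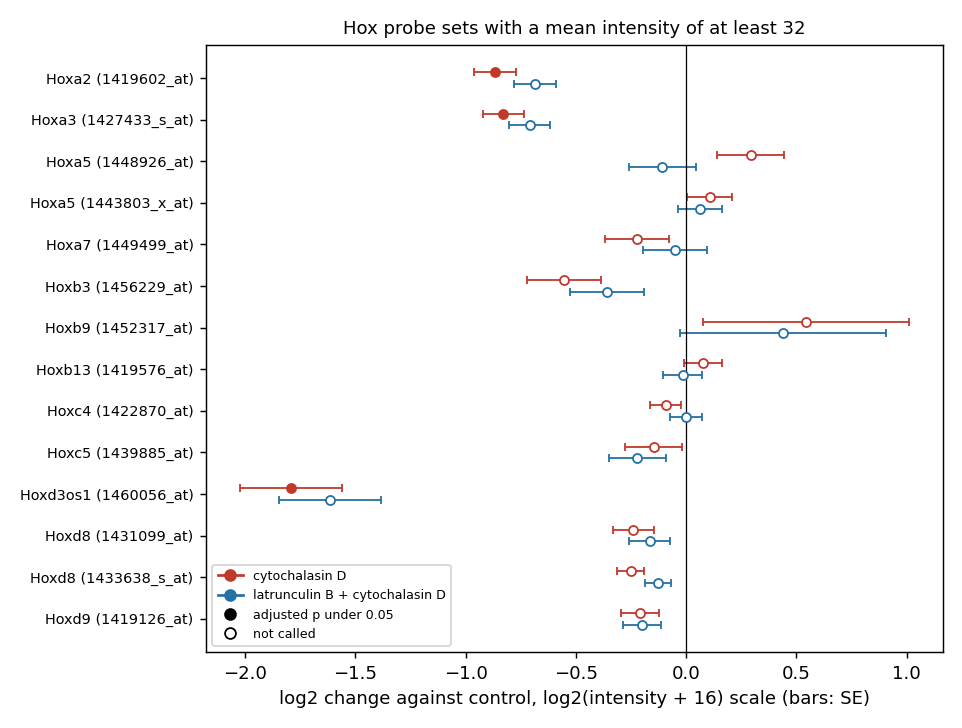
Log2 change against control, on the log2(intensity + 16) scale, of the 14 Hox probe sets with a mean intensity of at least 32, with bars for the limma SE. Filled symbols, at Hoxa2, Hoxa3 and Hoxd3os1 with cytochalasin D, mark an adjusted p under 0.05, and the double-drug values of the same 3 probe sets lie nearby but are open; both treated groups were set against the same 3 control arrays.

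With both drugs, the intensities of Hoxa2, Hoxa3 and Hoxd3os1 lay below those of the controls, as given above, but the differences did not pass the adjusted threshold. limma called 0 of 28 member probe sets in this comparison, where 0.111% of all tested probe sets were called. At an unadjusted p under 0.05 there were 3 of 28, all lower, against 2.61% of all probe sets. The log2 changes were -0.68 for Hoxa2 (adjusted p = 0.0877), -0.71 for Hoxa3 (adjusted p = 0.0753) and -1.62 for Hoxd3os1 (adjusted p = 0.0905). Their ranks from the lowest were 70, 60 and 2 of 27010. When only probe sets with a mean of at least 32 were tested, all 3 were called, with adjusted p-values of 0.0354, 0.0308 and 0.0247, and so were 0.436% of the 16498 probe sets then tested. Hoxd3os1 passes that filter only through its controls, so its call under it has no weight. Without the control array numbered 1, Hoxa3 was called (adjusted p = 0.026).

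The group values of the double-drug arrays lay wholly below the controls in 4 of 28 probe sets, against 3.99% of all, namely Hoxa2, Hoxa3, Hoxd3os1 and the Hoxd8 probe set 1431099_at. Hoxb3 had a log2 change of -0.36 in this comparison (SE 0.17), Hoxd9 one of -0.20 (limma adjusted p = 0.969) and Hoxd8 ones of -0.17 and -0.13. The median log2 change of the 28 probe sets was -0.011, compared with 0.0032 for all tested probe sets. The cytochalasin D and double-drug comparisons share their control arrays, so their values are not independent of each other.

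Cytochalasin D alone and both drugs were compared directly to ask whether latrunculin B altered the Hox response. limma called 0 of 28 member probe sets, where 0.259% of all tested probe sets were called, and 1 of 28 had an unadjusted p under 0.05, against 4.22% of all. That probe set was Hoxa5 (1448926_at), with a log2 difference of 0.40 (95% interval 0.04 to 0.76, limma adjusted p = 0.9995). For the genes that fell, the log2 difference of cytochalasin D minus both drugs was -0.18 for Hoxa2 (95% interval -0.41 to 0.04), -0.12 for Hoxa3 (-0.34 to 0.10) and -0.18 for Hoxd3os1 (-0.73 to 0.37). The tests that missed the threshold do not show that the groups were alike. All 3 intervals ended short of the estimated falls with cytochalasin D, and that of Hoxd3os1 was the widest. The falls come from the same cytochalasin D arrays, in genes picked for falling, so this is a description only. The median log2 difference of the 28 probe sets was -0.0075, compared with -0.0059 for all.

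**Figure D4:**
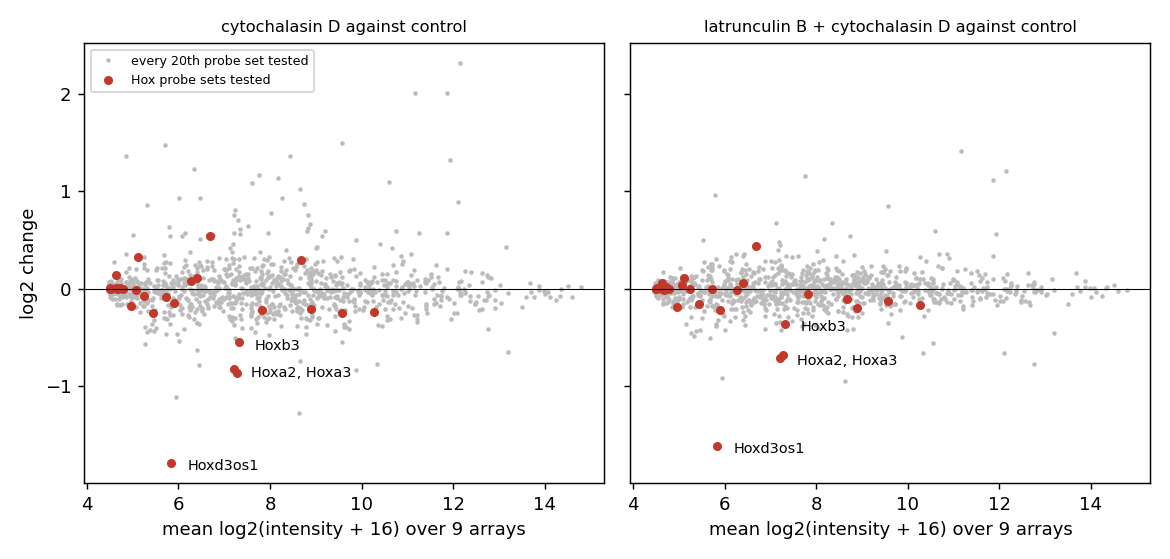
Log2 change against control (vertical) and mean log2(intensity + 16) over the 9 arrays (horizontal) for the 28 tested Hox probe sets and every 20th of all 27010 tested probe sets, for cytochalasin D (left) and both drugs (right). Most Hox probe sets lie within the band of the other probe sets near 0, and Hoxd3os1, Hoxa2 and Hoxa3 lie below it in both panels.

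Other transcripts of the clusters were inspected after the values of the members had been seen. In the reference gene table, Gm38462 is a long noncoding RNA of the Hoxd cluster that carries Hoxd3os1 as a synonym. Its probe set had intensities of 324, 322 and 366 in controls, of 248, 278 and 236 with cytochalasin D, and of 297, 278 and 267 with both drugs. All treated arrays lay below all controls, and the log2 change with cytochalasin D was -0.39 (limma adjusted p = 0.0713). Gm15050, a long noncoding RNA of the Hoxa cluster, had means of 226 in controls, 164 with cytochalasin D and 179 with both drugs, and a log2 change of -0.44 with cytochalasin D (adjusted p = 0.293).

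Probe sets outside the membership rule included 1 annotated to both Hoxd4 and Hoxd3, with intensities of 111, 187 and 111 in controls, of 55.3, 105 and 115 with cytochalasin D, and of 87.7, 107 and 151 with both drugs. Its groups overlapped, and it did not pass the test (adjusted p = 0.734). A probe set annotated to both Hoxb8 and Hoxb7 lay between 4.93 and 10.96, and the antisense transcripts Hoxa11os and Hoxb5os lay between 4.62 and 5.94 and between 6.20 and 9.80.

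The partners and regulators of Hox proteins were followed through lists of known genes. TALE homeodomain proteins bind DNA together with Hox proteins, and 6 of 8 measured members were expressed, among them Pbx3 (mean 674) and Meis1 (mean 451). Of the 7 tested, 0 were called in any contrast. Over all tested probe sets, 1.57% were called with cytochalasin D, 0.111% with both drugs and 0.259% between these groups. In a list of this size the count is near these shares. The median log2 change of the 7 with cytochalasin D was -0.11. Pbx3 had a log2 change of -0.36 with cytochalasin D (limma adjusted p = 0.565) and Meis1 one of -0.26 (adjusted p = 0.325).

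Of the Polycomb proteins, which keep Hox clusters silent, 25 of 28 measured were expressed, among them the histone-binding subunits Rbbp4 (mean 6407) and Rbbp7 (mean 16066). With cytochalasin D, 2 of 26 tested rose and 0 fell, against 1.14% of all probe sets called higher and 0.422% called lower. With both drugs and between the treated groups 0 of 26 were called, against 0.111% and 0.259% of all. Jarid2, a subunit that helps direct the repressive complex PRC2, rose from 38.6 ± 9.42 in controls to 132 ± 33.3 with cytochalasin D, and was at 50.2 ± 14.3 with both drugs (SD, n = 3 each; log2 change 1.43, limma adjusted p = 0.0348). For that probe set the log2 difference of cytochalasin D minus both drugs was 1.16 and did not pass (limma adjusted p = 0.218). Jarid2 was called with cytochalasin D in 2 of its 3 tested probe sets. Cbx8, a chromodomain subunit of PRC1, rose from 137 ± 13.05 to 227 ± 7.57, with 185 ± 25.1 under both drugs (log2 change 0.67, limma adjusted p = 0.0248). These calls were fragile: leaving out 1 array at a time, Jarid2 lost its call in 8 of 9 cases and Cbx8 in 7 of 9, with adjusted p-values up to 0.134 and 0.107. With all probe sets tested, neither was called (0.0734 and 0.0524).

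A further list held genes of trithorax group proteins, associated factors and histone demethylases, which keep Hox genes active. Of these, 16 of 16 measured were expressed, among them Dpy30 (mean 1519) and Psip1 (mean 1229), and 0 of 16 tested were called in any contrast. Genes of retinoic acid signalling, the inducer of Hox genes in the embryo, were expressed in 6 of 16 measured cases. Among them were the receptor Rxrb (mean 490) and the retinol dehydrogenase Rdh10 (mean 362), and 0 of 9 tested were called. Both counts are near the shares over all tested probe sets, 1.57% with cytochalasin D, 0.111% with both drugs and 0.259% between these groups.

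Of other Hox regulators, 5 of 10 measured were expressed, including the cohesin subunit Rad21 (mean 4606), and 1 of 7 tested rose with cytochalasin D while 0 fell, where 1.14% and 0.422% of all tested probe sets did. With both drugs and between the treated groups 0 of the 7 were called, against 0.111% and 0.259% of all. The one that rose with cytochalasin D was Egr2 (Krox20), an activator of Hoxa2 in the embryonic hindbrain. Egr2 went from 2727 ± 880.3 in controls to 11157 ± 3287 with cytochalasin D and 7609 ± 1219 with both drugs (SD, n = 3 each), a log2 change of 2.04 with cytochalasin D (limma adjusted p = 0.0346). With both drugs the log2 change was 1.52 and did not pass (limma adjusted p = 0.264). The cytochalasin D call was lost in 8 of 9 cases when 1 array was left out, with adjusted p-values up to 0.133. It was also lost with all probe sets tested (0.0734) and with only the 6 arrays compared (0.169). Of the 2 tested Egr2 probe sets, 1 was called.

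Genes lying near the Hox clusters on the chromosome serve as a comparison for the regions. Of these, 21 of 30 measured were expressed, among them the ATP synthase genes Atp5g3 (mean 10342) and Atp5g2 (mean 4517). limma called 0 of 25 tested in any contrast, a count near the background shares of 1.57%, 0.111% and 0.259% in a list of this size. Their median log2 change was -0.0072 with cytochalasin D and 0.0032 with both drugs.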

How the data were processed

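RNA of 9 NIH 3T3 cultures was measured on Affymetrix arrays, and the deposited values are linear intensities normalized by the authors, 1 per probe set and array. MAS5 and GCRMA are listed in the submitters' processing notes, with no versions and no word on which made these values. Of 45101 probe sets, 64 controls were left out. The platform annotation gave 1 symbol to 34945, several to 932 and none to 9160, and symbols were updated through gene identifiers with a RefSeq gene table of GRCm38.p6.

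Intensities were changed to log2(intensity + 16), and probe sets above the 40th percentile of their own array (6.16 to 6.35) on at least 3 arrays were tested: 27010 in all. limma 3.58.1 in R 4.3.3 (lmFit, eBayes, 1 coefficient per group, all 9 arrays) gave two-sided tests of 3 contrasts, with Benjamini-Hochberg adjustment over all probe sets tested. On data simulated for cytochalasin D against control, with 27010 probe sets, the fit recovered 77% of log2 changes of 1 and 96% of log2 changes of 2, and 8.95% of calls were false. The simulated noise was independent between arrays and held no equal values, unlike the data, so these rates may not hold for the data. Of 36 array pairs, 0 were identical. Groups came from the agent label. The number of arrays limits the precision.

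Named were all expressed Hox genes, all called Hox probe sets and the next 5 by p in each contrast, described in full only where they bear on a result, and from each list up to 3 called and the brightest 2 members. Members and lists were chosen with earlier results of these data known. The alternatives were other pseudocounts, filters, normalization, prior, samples, a replicate block, thresholds and leaving out single arrays.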

Additional observations from a re-analysis of the deposited data

How the results depend on the processing

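The count of Hox probe sets called with cytochalasin D stayed at 3 with pseudocounts of 1 and 64, other filters, quantile normalization, an intensity trend and an adjusted p under 0.1. Under these settings the share called over all tested probe sets ran from 0.642% with no filter to 2.96% with a mean of at least 32. The Hox count was 0 with only the 6 arrays compared (0.589% of all), and 2 to 4 when single arrays were left out (0.855% to 1.8% of all). With both drugs against control the count was 3 when the mean intensity had to be at least 32 (0.436% of all). That is a filter that Hoxd3os1 passes only through its controls. The count was 3 at an adjusted p under 0.1 (0.307% of all), and 0 to 1 when single arrays were left out (0% to 0.155% of all). Cytochalasin D against both drugs gave 0 under each of these settings, where 0.0111% to 0.485% of all were called. The number of expressed Hox genes was 14 at a threshold of 16, 8 at 64, 9 with the median over a gene's probe sets, and 12 with each array left out.

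The replicate numbers 1, 3 and 7 recur in each group. Over 9 same-numbered pairs, the deviations from the group means correlated at 0.0763 to 0.834, above 0.1 in 8 pairs, and 9 of 9 arrays correlated best with an array of their own number, a hint from the data and not from the design. With the replicate block, limma called 4 Hox probe sets with cytochalasin D, Hoxb3 in addition (adjusted p = 0.0141), and 1 with both drugs (Hoxa2, adjusted p = 0.0293). Hoxb9 did not pass with the block either, though its adjusted p with cytochalasin D by limma went from 0.861 to 0.0899. Over all probe sets the block raised the share called from 1.57% to 3.87% and from 0.111% to 0.455%.

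The medians of the tested Hox probe sets, in the order cytochalasin D, both drugs and the difference, were -0.025, -0.018 and -0.012 with a pseudocount of 1, and -0.00015, 0.00079 and -0.0019 with no filter. Quantile normalization gave -0.0072 and -0.0055 for the first and second. Leaving out single arrays gave -0.027 to -0.0031, -0.021 to -0.0041 and -0.035 to -0.0040. All are small beside the changes of the called genes.

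Signs turned only at changes that were not called. Hoxc4 with both drugs was 0.030 under quantile normalization and -0.0046 to 0.0035 with single arrays left out. With single arrays left out, the change with both drugs ran from -0.20 to 0.017 for Hoxa5 and from -0.011 to 0.090 for Hoxc6 (1427361_at), and that of Hoxb13 with cytochalasin D ran from -0.036 to 0.15. Cytochalasin D against both drugs ran from -0.28 to 0.0011 for Hoxa7, from -0.020 to 0.16 for Hoxb13, from -0.21 to 0.52 for Hoxb9, from -0.058 to 0.14 for Hoxc5 and from -0.058 to 0.052 for Hoxd9. The cause of these differences was not tested. Of the changes of single probe sets under these alternatives, 903 kept direction and call, 32 lost a call, 10 gained one and 15 turned. With 3 arrays a group and dim probe sets pressed toward 0 by the added 16, small changes of dim Hox genes could not be detected.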
